A study of Mus musculus with 24 samples.

Results

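The genes described here are 36 immediate early and MAPK feedback genes, taken as named rows of the count table among its 53465 genes and followed across the 8 groups of the study. RNA was measured by poly(A) RNA sequencing in whole cultures differentiated towards adipocytes. They were grown from the stromal vascular fraction, the non-adipocyte cells of fat, of epididymal (eWAT) or inguinal (iWAT) white adipose tissue of mice. Marker RNA of other cell types was also present, as given below. In each depot the 4 groups, with 3 libraries each, were aKO siC/EBPb, aKO siNS, Cont siC/EBPb and Cont siNS. The aKO cells came from Senp2flox/flox; Adipoq Cre mice and the Cont cells from Senp2flox/flox mice, so that both genotypes carry the floxed gene for the SUMO protease SENP2. siC/EBPb is an siRNA against C/EBPβ, a transcription factor of early adipogenesis, and siNS is its control siRNA. All cells received isobutylmethylxanthine (0.5 mmol/l), dexamethasone and insulin (0.1 mg/ml) for 2 days and then insulin (1 µg/ml) in 10% serum for 5 days. The Adipoq promoter drives Cre in adipocytes, so cells of an aKO culture that had not become adipocytes keep Senp2. The ages of the mice, the time of siRNA delivery and whether the 3 replicates were separate mice or wells are not given, so p-values measure the spread between these libraries, which may be technical.

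Immediate early genes are transcribed within minutes of a stimulus, without new protein synthesis, by transcription factors already present: serum response factor and its ETS-family partners downstream of the kinase ERK, and CREB downstream of cyclic AMP. Many of their products are transcription factors themselves (the Egr zinc fingers, the AP-1 proteins of the Fos and Jun families, the NR4A orphan nuclear receptors). Others feed back on the pathway: DUSP phosphatases remove phosphate from MAP kinases, Sprouty proteins act upstream at receptor and RAS level, and ERRFI1 (also called MIG6) binds and inhibits the EGF receptor. In fat cells isobutylmethylxanthine raises cyclic AMP, insulin and serum signal through ERK, and CREB and C/EBPβ act at the start of adipogenesis. Steady RNA levels days after the last change of hormones are not a time course of induction, and the protein and phosphorylation states of these pathways are not part of these data.

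The promoters of 6 genes on which the results below turn were read from RefSeq (GRCm38.p6), as the 250 bases before the annotated start, 5′ to 3′ on the gene's strand. They are Fos (chr12:85473640-85473889, plus strand), Errfi1 (chr4:150854820-150855069, plus), Per1 (chr11:69098699-69098948, plus) and Dusp6 (chr10:99262981-99263230, plus), whose RNA fell with siC/EBPb in every depot and genotype. Btg2 (chr1:134079156-134079405, minus) rose in each of them and Nr4a1 (chr15:101266596-101266845, plus) rose in aKO cells. Capitals mark a match, on either strand, to a full cyclic AMP response element (TGACGTCA), its core (TGACG, contained in the full element), an AP-1 element (TGANTCA), a C/EBP element (TTGCNNAA) or the CArG box of serum response factor. A gene can have other annotated starts. For Errfi1 a window further along the chromosome was printed, not the earliest by position as for the other genes. Its matches lie in the printed window alone, and its earlier window holds none of these motifs.
Fos: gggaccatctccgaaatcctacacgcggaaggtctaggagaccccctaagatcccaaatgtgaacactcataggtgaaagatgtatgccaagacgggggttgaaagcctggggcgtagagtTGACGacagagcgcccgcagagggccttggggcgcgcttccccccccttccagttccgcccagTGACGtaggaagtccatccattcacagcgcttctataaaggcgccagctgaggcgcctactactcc
Errfi1: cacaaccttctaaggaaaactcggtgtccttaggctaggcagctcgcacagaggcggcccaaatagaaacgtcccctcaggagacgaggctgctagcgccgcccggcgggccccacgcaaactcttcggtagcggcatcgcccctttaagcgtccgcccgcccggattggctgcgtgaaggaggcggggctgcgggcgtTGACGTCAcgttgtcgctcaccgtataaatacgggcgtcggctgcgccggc
Per1: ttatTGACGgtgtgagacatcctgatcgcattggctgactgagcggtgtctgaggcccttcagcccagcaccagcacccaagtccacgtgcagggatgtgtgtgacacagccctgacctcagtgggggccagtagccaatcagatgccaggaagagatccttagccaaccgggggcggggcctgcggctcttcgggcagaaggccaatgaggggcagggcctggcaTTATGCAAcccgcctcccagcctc
Dusp6: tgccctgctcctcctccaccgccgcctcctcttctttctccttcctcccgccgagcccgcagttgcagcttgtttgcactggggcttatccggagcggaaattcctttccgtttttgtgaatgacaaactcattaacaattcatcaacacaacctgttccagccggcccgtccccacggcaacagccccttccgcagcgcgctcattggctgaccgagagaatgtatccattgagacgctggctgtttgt
Btg2: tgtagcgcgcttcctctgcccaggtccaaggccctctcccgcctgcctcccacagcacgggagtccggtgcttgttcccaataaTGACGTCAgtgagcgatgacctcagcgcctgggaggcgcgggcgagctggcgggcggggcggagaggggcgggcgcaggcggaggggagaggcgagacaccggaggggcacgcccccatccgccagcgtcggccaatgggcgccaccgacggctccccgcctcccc
Nr4a1: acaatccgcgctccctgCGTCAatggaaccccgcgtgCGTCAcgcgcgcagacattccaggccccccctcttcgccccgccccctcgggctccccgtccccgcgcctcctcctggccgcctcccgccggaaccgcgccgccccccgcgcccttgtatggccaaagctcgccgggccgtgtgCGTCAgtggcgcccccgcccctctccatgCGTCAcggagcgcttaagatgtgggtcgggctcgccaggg

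Windows of this kind, with 50 bases after the start added, were given for 26 of the 36 genes and for 27025 genes in all. The full cyclic AMP response element was present for 4 of the 26 genes (Btg2, Dusp1, Errfi1 and Maff), or 15.4%, against 2.0% of all genes with a window. Its core was present for 18 of the 26, or 69.2%, against 23.0% of all genes. The CArG box matched for Dusp5, Egr2 and Zfp36, or 11.5% of the 26 against 1.8% of all genes. The C/EBP element matched for Jund, Maff, Per1 and Sgk1, or 15.4% against 12.2%, and the AP-1 element for Csrnp1 alone, or 3.8% against 9.0%. The Dusp6 window holds none of the 5 motifs, which says only that these letters are not in this window. A gene with several annotated starts has several windows and more chance of a match, and no test was made of these shares.

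Total gene counts were 8435494 to 15388744 in 23 libraries and 603585 in the library labelled iWAT aKO siNS replicate 2, where 1 count is worth 1.98 CPM. That library, called shallow below, listed 14848750 reads, of which 93.3% were not aligned, against 16.8% to 27.6% in the other 23. Its TMM factor was 0.84, against 0.985 to 1.04. Its sum of 10 fibroblast and progenitor markers was 60041 CPM, against 30834 and 31138 CPM in its group, so it differed in more than depth. The genes described here took 15795 to 30162 counts in each of the other 23 libraries. Levels are given as CPM, counts relative to library size scaled by edgeR's TMM factors, and changes as log2 fold changes with their standard errors from edgeR's quasi-likelihood fit over all 24 libraries. A gene is said to have risen or fallen where its Benjamini-Hochberg adjusted p over all 14785 tested genes was under 0.05. Of the 36 genes 35 passed the filter on low counts. The exception was Dusp2, a nuclear MAP kinase phosphatase, which lay between 0 and 0.342 CPM in all libraries. Exons of 9 of the genes (Csrnp1, Dusp1, Fosl1, Jun, Junb, Jund, Mafk, Phlda1 and Zfp36) overlap another annotated gene, and because neither labels nor notes give the strand setting of the counting, reads of such neighbours may be included.

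Per kilobase of exon, the highest levels in eWAT Cont siNS cells were those of Jund (90.7 CPM per kb), Errfi1 (67.8), Fosl2 (61.1) and Junb (42.2). The lowest among the tested genes were those of the neuronal activity gene Arc (0.512 CPM per kb) and of Nr4a3 (0.335). Fos and Egr1, the classical markers of acute stimulation, stood in the middle of this order at 7.28 and 9.59 CPM per kb. The genes were measured closely: the median of their pooled SDs within groups, leaving out the group with the shallow library, was 0.13 on the log2 scale, with the smallest for Fosl2 (0.06) and the largest for Nr4a3 (0.34). The plot of each gene in each library shows the bands of change that the comparisons below describe.

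**Figure D1:**
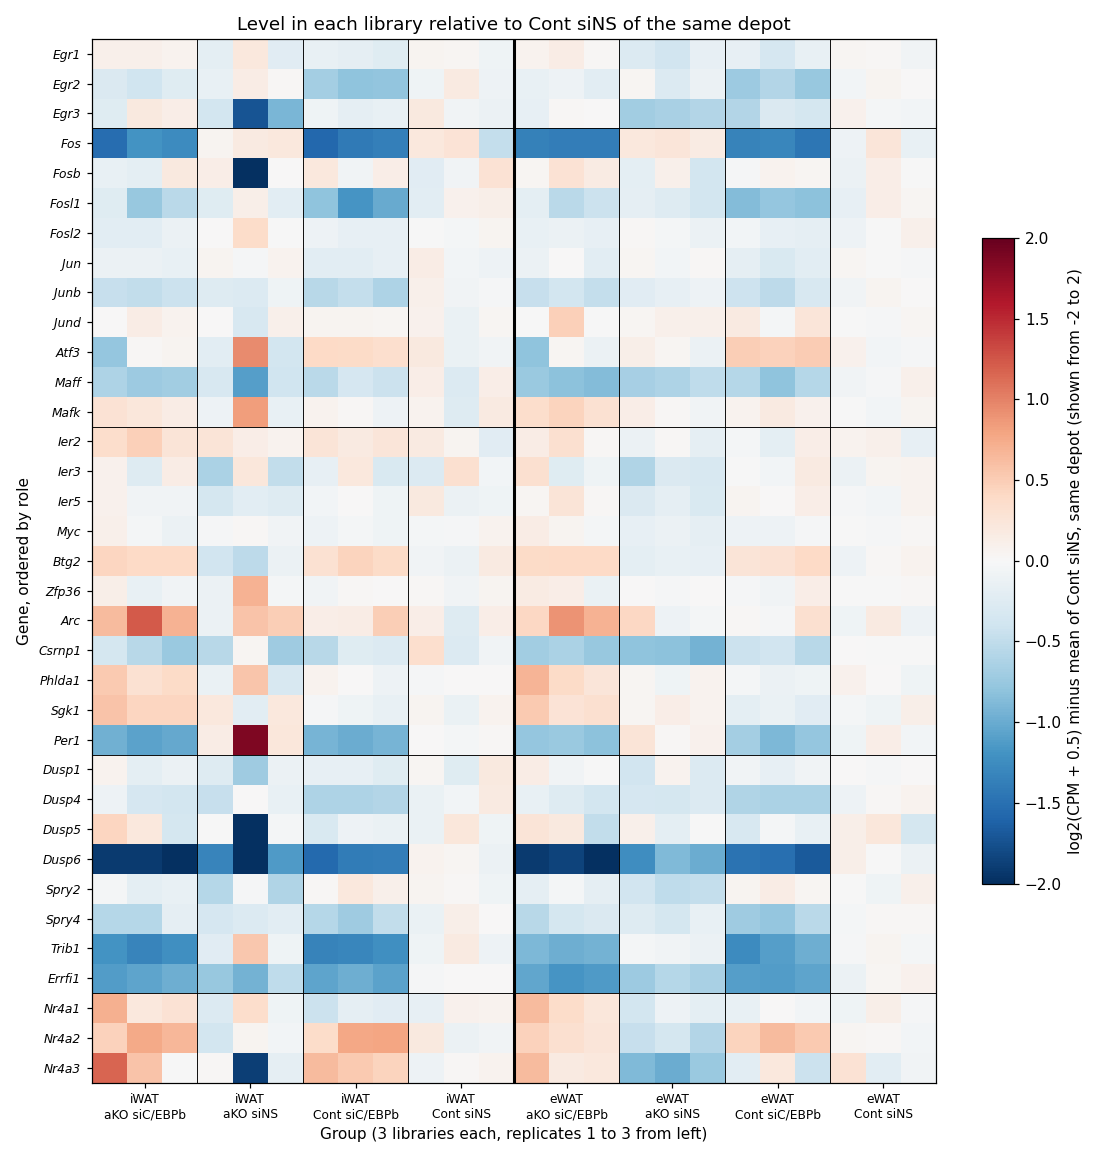
Level of the 35 tested genes (rows, ordered by role) in the 24 libraries (columns, replicates 1 to 3 within each group), as log2(CPM + 0.5) minus the mean of Cont siNS of the same depot, with colours limited to the range from -2 to 2. Dusp6, Errfi1, Fos, Trib1 and Per1 form blue bands in both siC/EBPb groups of both depots, and the second column of iWAT aKO siNS, the library of 603585 counts, departs from its neighbours in several genes.

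The targeted gene Cebpb had 20.1, 32.6 and 29.5 CPM in eWAT aKO siC/EBPb cells and 141, 158 and 155 CPM in eWAT aKO siNS cells. In eWAT Cont it had 57.3, 42.3 and 51.5 CPM with siC/EBPb and 156, 166 and 181 CPM with siNS. In iWAT aKO it had 12.7, 19.2 and 23.5 CPM with siC/EBPb and 114, 103 and 127 CPM with siNS, and in iWAT Cont 36.7, 37.6 and 33.7 CPM with siC/EBPb and 145, 110 and 118 CPM with siNS. Cebpb RNA thus ended lower in aKO than in Cont cells under the same siRNA, by −0.88 in eWAT and −0.97 in iWAT (edgeR adjusted p = 0.00134 and 0.00155). The difference between the knockdown's effects on Cebpb itself, aKO minus Cont, was −0.74 in eWAT and −0.90 in iWAT (edgeR adjusted p = 0.0562 and 0.0522). Every comparison below between aKO and Cont under siC/EBPb, and every interaction, sets cells with unequal Cebpb RNA against each other, and the part of this in the results was not tested. Senp2 RNA passed the threshold in none of these comparisons, but without the shallow library it passed in eWAT aKO siNS against Cont siNS (−0.19, edgeR adjusted p = 0.0322, against 0.0519 with it) and in the eWAT interaction (0.29, 0.0484, against 0.0855 with it). The counts are sums over the whole gene, so they do not check the deletion.

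Marker RNA of several cell types was present in the cultures, and its levels differed between the groups. The adipocyte genes Adipoq (58.2 to 187 CPM), Plin1 (47.8 to 192) and Fabp4 (179 to 721) were present in all 24 libraries, as were the fibroblast and progenitor gene Pdgfra (399 to 900) and the smooth muscle gene Acta2 (398 to 2896). The leukocyte gene Ptprc ran from 3.98 to 61.5 CPM, the endothelial gene Cdh5 from 0 to 6.65 CPM, and the epithelial gene Epcam and the erythroid gene Alas2 stayed at or under 0.135 CPM. Summed over 8 leukocyte markers, eWAT levels were 43.9 to 81.8 CPM in aKO siC/EBPb, 362 to 393 in aKO siNS, 144 to 165 in Cont siC/EBPb and 429 to 616 in Cont siNS. In iWAT the same sum was 40.9 to 73.9 CPM in aKO siC/EBPb, 259 to 424 in aKO siNS, 146 to 159 in Cont siC/EBPb and 438 to 624 in Cont siNS. The marker counts below stand beside these shares of all tested genes. In aKO siNS against Cont siNS 10.9% fell and 9.5% rose in eWAT, and 7.85% and 7.32% in iWAT. With siC/EBPb 14% to 19.1% fell and 10.3% to 16.6% rose. In aKO siC/EBPb against Cont siC/EBPb 6.87% fell in eWAT and 6.51% in iWAT. Interactions were negative for 3.33% and 2.19% and positive for 3.01% and 1.32%. Some counts, such as 1 of 10, are near these shares. Of the 8 leukocyte markers, 6 fell in eWAT aKO siNS against Cont siNS, 4 in the iWAT comparison, and 8 in each of the 4 comparisons of siC/EBPb with siNS. Of 10 adipocyte markers, 6 rose in eWAT aKO siNS and 3 in iWAT aKO siNS against Cont siNS. With siC/EBPb 9 of them fell in eWAT aKO, 8 in iWAT aKO and 4 in Cont of each depot, while 6 of 7 smooth muscle and pericyte markers rose in each of the 4. In aKO siNS against Cont siNS 3 of these 7 fell in eWAT (median −0.71) and 5 in iWAT (median −0.64), and in each depot 2 had a positive called interaction. The calls among the 35 genes are given below beside the shares of all tested genes. Their relation to this or any other marker list was not tested. Called interactions were negative for 2 leukocyte markers in eWAT. They were also negative for 3 and 2 fibroblast and progenitor and 1 and 1 endothelial markers in eWAT and iWAT. The sum of 7 mesothelial markers was lower in aKO, with 6.81 to 7.98 CPM in eWAT aKO siC/EBPb, 6.09 to 7.77 in aKO siNS, 27.9 to 29.6 in Cont siC/EBPb and 24.7 to 26.2 in Cont siNS, and in iWAT 3.96 to 8.11 CPM in the aKO groups and 24.5 to 31.3 in the Cont groups. Of 10 fibroblast and progenitor markers 6 fell and 1 rose with siC/EBPb in eWAT aKO, and 7 fell in iWAT aKO. In aKO siNS against Cont siNS 3 of these 10 rose and 1 fell in each depot. In that comparison 3 of the 6 tested mesothelial markers fell in each depot. Of 7 endothelial markers 4 fell and 1 rose in eWAT aKO siNS against Cont siNS, and 3 fell and 1 rose in iWAT. In aKO siC/EBPb against Cont siC/EBPb, 8 of the 8 leukocyte markers fell in eWAT and 7 in iWAT, and 5 and 4 of the 6 tested mesothelial, 3 and 4 of the 7 endothelial and 3 and 3 of the 10 fibroblast and progenitor markers fell. Many of the genes described here are also expressed by leukocytes and stromal cells, fewer cells of a type and less RNA per cell cannot be told apart in such libraries, and the part of these shifts in the results was not tested.

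In aKO cells with the control siRNA a minority of these genes fell and none rose. They include 4 and 3 of the 8 tested feedback inhibitors, in eWAT and iWAT, and 1 of the 10 AP-1 and related genes in each depot. In eWAT 11 of the 35 tested genes fell (31.4%) and none rose, where 10.9% of all tested genes fell and 9.5% rose. In iWAT 7 fell (20%) and none rose, against 7.85% of all genes that fell and 7.32% that rose, and all 7 (Csrnp1, Dusp6, Egr3, Errfi1, Ier5, Maff and Spry2) had also fallen in eWAT. The median change of the 35 genes was −0.17 in eWAT and −0.18 in iWAT, against 0.00 and −0.00 over all tested genes. Without the shallow library 9 of the 35 passed the threshold in iWAT: the 7 genes and Dusp4 lower, and Sgk1 higher (0.21, edgeR adjusted p = 0.0469).

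Of the 8 tested feedback inhibitors 4 fell in eWAT and 3 in iWAT. Dusp6, the cytoplasmic phosphatase that inactivates ERK, had 10.7, 13.9 and 12.8 CPM in eWAT aKO siNS cells and 28.3, 26 and 23.9 CPM in eWAT Cont siNS cells. In iWAT it had 9.72, 1.98 and 11.1 CPM in aKO siNS, the second being 1 count in the shallow library, and 26.3, 25.8 and 23 CPM in Cont siNS. The groups were apart in both depots, with changes of −1.06 ± 0.109 in eWAT (SE, n = 3 and 3, edgeR adjusted p = 5.20e-08) and −1.30 ± 0.133 in iWAT (6.65e-08), or −1.27 without the shallow library. Errfi1 had 147, 163 and 155 CPM in eWAT aKO siNS cells and 223, 249 and 257 CPM in Cont siNS cells. In iWAT it had 131, 115 and 155 CPM in aKO siNS and 217, 224 and 224 CPM in Cont siNS. Every aKO library lay below every Cont library, and Errfi1 fell by 0.65 in eWAT and by 0.67 in iWAT on the log2 scale (edgeR adjusted p = 2.29e-07 and 9.81e-07). Spry2, a Sprouty inhibitor of receptor signalling, had 22.6, 20.7 and 21.1 CPM in eWAT aKO siNS and 29.5, 27.8 and 31.8 CPM in Cont siNS, a change of −0.47 ± 0.078 (edgeR adjusted p = 6.13e-05). In iWAT its levels were 17.5, 25.7 and 17.1 CPM in aKO siNS and 27.1, 26.7 and 24.7 CPM in Cont siNS, and the shallow library reached into the Cont range (−0.58 ± 0.0953, edgeR adjusted p = 8.27e-05). Dusp4, a nuclear phosphatase of ERK, fell in eWAT (−0.33 ± 0.0849, edgeR adjusted p = 0.00611) and missed the threshold in iWAT (−0.28 ± 0.097, 0.0533). Dusp1, Dusp5, Spry4 and Trib1, a pseudokinase that steers C/EBPα to degradation, had values of −0.06 to −0.28 in the 2 depots and did not pass it.

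Among the transcription factors, Egr3 had 5.08, 5.21 and 5.51 CPM in eWAT aKO siNS cells and 9.03, 8.28 and 8.19 CPM in Cont siNS cells. It fell by 0.69 in eWAT and by 0.72 in iWAT (edgeR adjusted p = 0.000788 and 0.00483). Egr1 changed less, with 35.6, 33 and 38.3 CPM in eWAT aKO siNS and 44.4, 43.8 and 40.9 CPM in eWAT Cont siNS (−0.27 ± 0.0701, edgeR adjusted p = 0.00593), and did not pass the threshold in iWAT (−0.20, 0.113). Of the 10 AP-1 and related leucine zipper genes only Maff, a small Maf protein, fell, by 0.60 in eWAT and 0.40 in iWAT (edgeR adjusted p = 3.37e-05 and 0.0151). Fos itself had 19.7, 20.1 and 19.2 CPM in eWAT aKO siNS and 15.8, 20.3 and 15.3 CPM in Cont siNS, overlapping ranges with no call (0.20, edgeR adjusted p = 0.295). The nuclear receptor genes Nr4a2 (−0.53 ± 0.159) and Nr4a3 (−1.22 ± 0.327) fell in eWAT (edgeR adjusted p = 0.0167 and 0.00768). Nr4a3 stood at only 0.847, 0.745 and 0.972 CPM in eWAT aKO siNS and 2.53, 1.63 and 1.85 CPM in Cont siNS. In iWAT neither passed the threshold (−0.24 and −0.13), and the difference between the depots was not called for any gene, as given below. Csrnp1, a cysteine- and serine-rich nuclear protein, fell by 0.89 in eWAT and by 0.67 in iWAT, and Ier5, a regulator of heat shock factor, by 0.26 and 0.32 (edgeR adjusted p = 9.21e-06, 0.00279, 0.0155 and 0.0178).

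**Figure D2:**
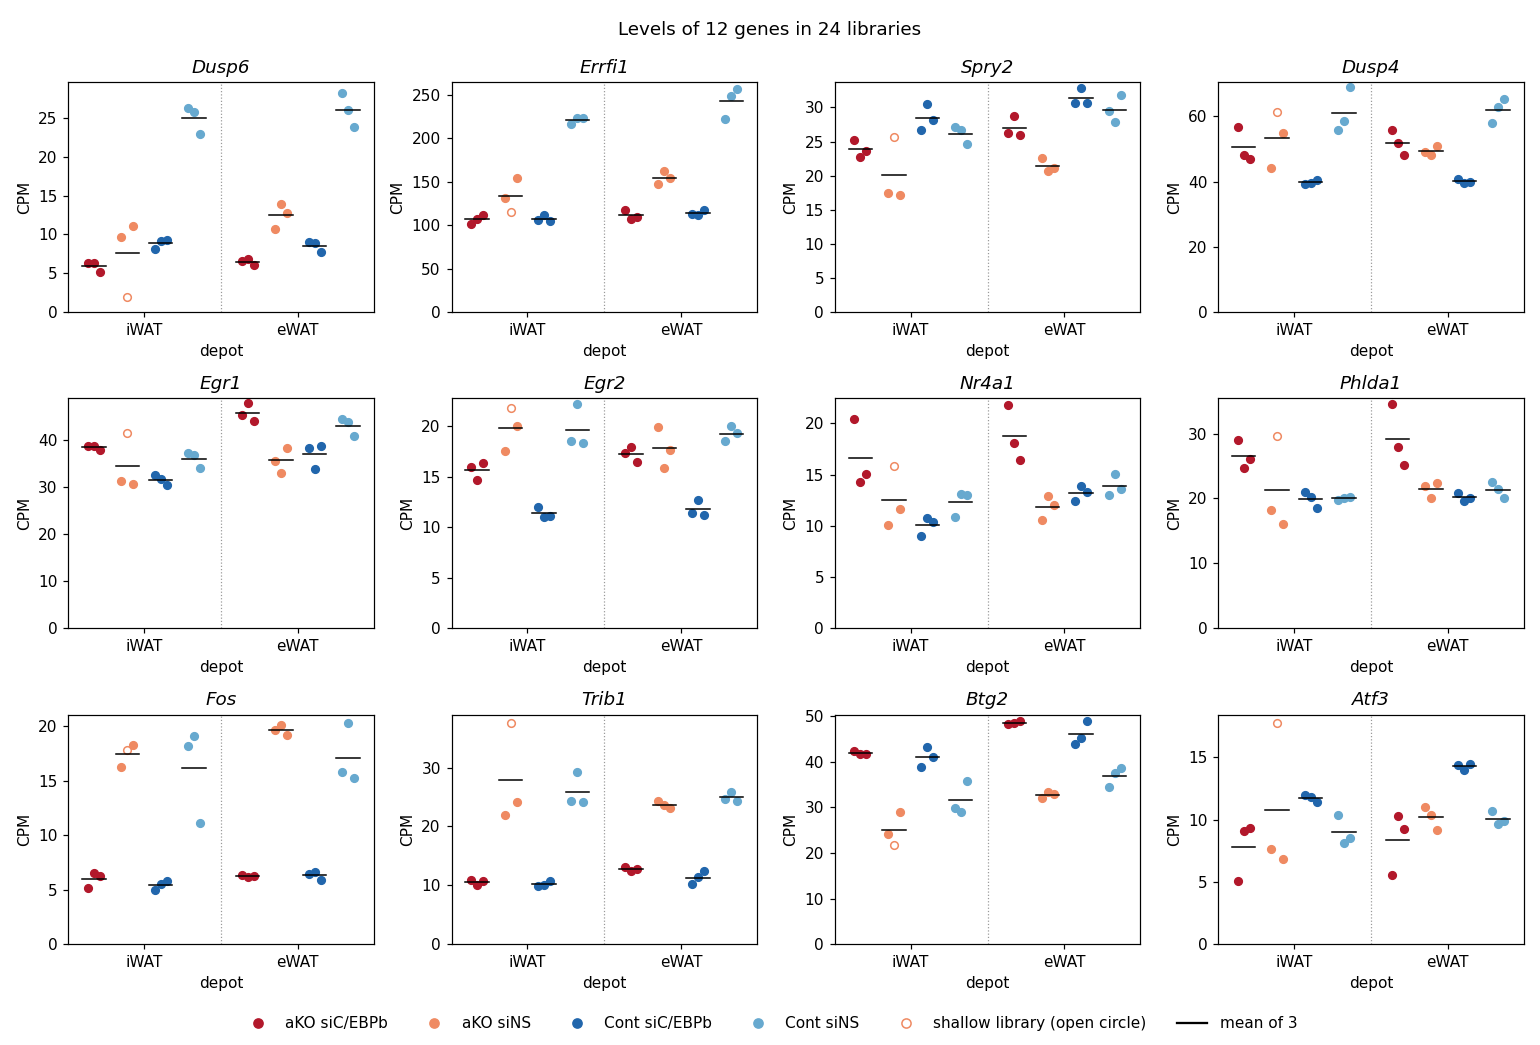
CPM of 12 genes in each library (points), with the mean of the 3 libraries of a group as a line, by depot, genotype and siRNA; the open circle is the library of 603585 counts. Dusp6 and Errfi1 are highest in Cont siNS and lower in the 3 other groups, Fos and Trib1 are lower in both siC/EBPb groups than in both siNS groups, and Egr2 is lowest in Cont siC/EBPb.

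With knockdown of Cebpb in Cont cells, more of these genes fell than rose, and most did not fall. Those that fell include 5 of the 8 tested feedback inhibitors and 5 of the 10 AP-1 and related genes in each depot, but 2 of the 11 other nuclear regulators and immediate early genes. In eWAT Cont 15 of 35 fell with siC/EBPb (42.9%) and 3 rose (8.57%), where 14.9% of all tested genes fell and 11.8% rose. In iWAT Cont 13 fell (37.1%) and 2 rose (5.71%), against 14% and 10.3% of all tested genes. The 13 were all among the 15 of eWAT: Csrnp1, Dusp4, Dusp6, Egr2, Errfi1, Fos, Fosl1, Jun, Junb, Maff, Per1, Spry4 and Trib1. Median changes were −0.16 and −0.17, against 0.02 and 0.00 over all tested genes. These comparisons use the same Cont siNS libraries as those of aKO with Cont above, so a library of Cont siNS that runs high lowers both.

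Of the 8 tested feedback inhibitors 5 fell in each depot. Dusp6 had 9.06, 8.86 and 7.73 CPM in eWAT Cont siC/EBPb cells, against the 23.9 to 28.3 CPM of Cont siNS (−1.61 ± 0.115, edgeR adjusted p = 2.48e-11). In iWAT it had 8.18, 9.14 and 9.24 CPM in Cont siC/EBPb, against 23 to 26.3 CPM in Cont siNS (−1.50 ± 0.122, edgeR adjusted p = 3.49e-10). Errfi1 had 113, 112 and 117 CPM in eWAT Cont siC/EBPb and 106, 112 and 105 CPM in iWAT Cont siC/EBPb, below every Cont siNS library, and fell by 1.09 and 1.04 (edgeR adjusted p = 1.05e-11 and 4.98e-11). Trib1 had 10.2, 11.4 and 12.4 CPM in eWAT Cont siC/EBPb and 24.7, 25.9 and 24.4 CPM in Cont siNS. It fell by 1.14 there and by 1.34 in iWAT (edgeR adjusted p = 3.70e-10 and 1.22e-10). Dusp4 and Spry4 fell in both depots, by 0.61 to 0.70, while Spry2 did not pass the threshold (0.08 and 0.12; edgeR adjusted p = 0.475 and 0.319).

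Fos had 6.41, 6.62 and 5.93 CPM in eWAT Cont siC/EBPb and 15.8, 20.3 and 15.3 CPM in Cont siNS, a change of −1.44 ± 0.143 (edgeR adjusted p = 1.04e-08). In iWAT the levels were 4.94, 5.57 and 5.78 CPM in Cont siC/EBPb and 18.2, 19.1 and 11.1 CPM in Cont siNS (−1.58 ± 0.159, edgeR adjusted p = 1.50e-08), and all Cont siC/EBPb libraries lay below all Cont siNS libraries in both depots. Fosl1 (FRA1), an AP-1 partner whose RNA follows ERK activity, fell by 0.86 and 1.03, Junb by 0.42 and 0.55, and Jun by 0.23 and 0.20 (edgeR adjusted p = 4.04e-06, 1.33e-06, 1.33e-05, 7.13e-07, 0.008 and 0.03). Jund, Fosl2, Fosb and Mafk did not pass the threshold in either depot. Egr2 had 11.4, 12.7 and 11.2 CPM in eWAT Cont siC/EBPb and 18.5, 20 and 19.3 CPM in Cont siNS (−0.71 ± 0.0958, edgeR adjusted p = 1.56e-06), and fell by 0.80 in iWAT (1.08e-06). Per1, a clock gene that also responds to glucocorticoid and cyclic AMP, had 31.1, 26.7 and 29 CPM in eWAT Cont siC/EBPb and 47.2, 54.8 and 48.4 CPM in Cont siNS. It fell by 0.79 in eWAT and 0.97 in iWAT (edgeR adjusted p = 0.00126 and 0.000538). Btg2, an antiproliferative gene, went the other way with 44, 45.2 and 48.9 CPM in eWAT Cont siC/EBPb and 34.5, 37.5 and 38.7 CPM in Cont siNS (0.32 ± 0.0736, edgeR adjusted p = 0.0014). Nr4a2 also rose, by 0.59 in eWAT and 0.71 in iWAT, and the stress gene Atf3 rose in eWAT by 0.51 (edgeR adjusted p = 0.00191, 0.0012 and 0.0281).

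In aKO cells the same siRNA went with changes in both directions. These comparisons use the same aKO siNS libraries as those of aKO with Cont under siNS. An aKO siNS library that runs low lowers the difference between genotypes there and raises the change with siC/EBPb here. In eWAT aKO 15 of 35 rose (42.9%) and 6 fell (17.1%), where 16.6% of all tested genes rose and 19.1% fell. In iWAT aKO 13 rose (37.1%) and 9 fell (25.7%), against 13.6% and 17.7% of all tested genes. In eWAT aKO the share that fell was no larger than that of all genes. The 13 that rose in both depots were Arc, Btg2, Egr1, Egr3, Ier3, Ier5, Mafk, Nr4a1, Nr4a2, Nr4a3, Phlda1, Sgk1 and Spry2. The 6 that fell in both were Dusp6, Errfi1, Fos, Junb, Per1 and Trib1, and the same 6 had fallen in Cont of both depots. Median changes were 0.17 in eWAT and 0.06 in iWAT, against −0.00 and −0.01 over all tested genes. In iWAT the count rests on the well-covered siNS libraries: without iWAT aKO siNS replicate 1 or without replicate 3, which leaves the shallow library and 1 other, 14 of 35 passed the threshold.

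Fos had 6.35, 6.21 and 6.23 CPM in eWAT aKO siC/EBPb cells and 19.7, 20.1 and 19.2 CPM in aKO siNS cells (−1.65 ± 0.142, edgeR adjusted p = 4.33e-10). In iWAT it had 5.13, 6.55 and 6.31 CPM in aKO siC/EBPb and 16.3, 17.8 and 18.3 CPM in aKO siNS (−1.53 ± 0.162, edgeR adjusted p = 2.47e-08). Dusp6 had 6.55, 6.87 and 6.02 CPM in eWAT aKO siC/EBPb, below the 10.7 to 13.9 CPM of aKO siNS (−0.95 ± 0.13, edgeR adjusted p = 1.22e-06). Trib1 fell by 0.89 in eWAT and by 1.17 in iWAT, and Errfi1 by 0.47 and 0.39 (edgeR adjusted p = 1.56e-08, 2.27e-09, 1.06e-05 and 0.000413). Per1 had 28.9, 29.6 and 28.2 CPM in eWAT aKO siC/EBPb and 60.2, 50.8 and 52.9 CPM in aKO siNS. In iWAT aKO siNS it had 46.9 and 49.6 CPM in the deeper libraries and 156 CPM in the shallow one, so that its change there was −1.41 with that library and −1.23 without it (edgeR adjusted p = 1.09e-05 and 1.91e-13).

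All 3 nuclear receptor genes and 2 of the 3 Egr genes rose with siC/EBPb in aKO cells of both depots. Nr4a1 (NUR77) had 21.8, 18.1 and 16.4 CPM in eWAT aKO siC/EBPb cells and 10.6, 12.9 and 12 CPM in aKO siNS cells (0.66 ± 0.126, edgeR adjusted p = 0.000118). In iWAT it had 20.4, 14.3 and 15.1 CPM in aKO siC/EBPb and 10.1, 15.8 and 11.6 CPM in aKO siNS, where the shallow library overlapped the siC/EBPb range (0.59 ± 0.149, edgeR adjusted p = 0.00307). Nr4a2 rose by 0.91 in each depot (edgeR adjusted p = 2.27e-05 and 0.000188). Nr4a3 rose by 1.63 in eWAT and 0.99 in iWAT (edgeR adjusted p = 0.000119 and 0.0294), with a mean of 2.66 CPM in eWAT aKO siC/EBPb, against 0.854 CPM in eWAT aKO siNS. Its iWAT levels were 3.67, 2.26 and 1.35 CPM in aKO siC/EBPb and 1.38, 0 and 1.14 CPM in aKO siNS, the 0 being the shallow library, and the groups overlapped. Without that library its iWAT change was 0.95 (edgeR adjusted p = 0.0281). Egr1 had 45.3, 47.9 and 43.9 CPM in eWAT aKO siC/EBPb and 35.6, 33 and 38.3 CPM in aKO siNS, with no overlap (0.36 ± 0.0699, edgeR adjusted p = 0.000174). Egr3 rose by 0.64 in eWAT and by 0.74 in iWAT (edgeR adjusted p = 0.000742 and 0.00126). Phlda1, an early gene of growth factor signalling, had 34.5, 27.9 and 25.2 CPM in eWAT aKO siC/EBPb and 21.9, 20 and 22.4 CPM in aKO siNS (0.44 ± 0.099, edgeR adjusted p = 0.000727). Sgk1, a kinase induced by serum and glucocorticoid, had 217, 181 and 188 CPM in eWAT aKO siC/EBPb and 155, 165 and 158 CPM in aKO siNS (0.29 ± 0.0812, edgeR adjusted p = 0.00531). Btg2 had 48.2, 48.6 and 49 CPM in eWAT aKO siC/EBPb, against 32.1, 33.3 and 33 CPM in aKO siNS (0.57 ± 0.0744, edgeR adjusted p = 6.31e-07), and rose by 0.66 in iWAT (8.84e-07). Spry2 was the 1 inhibitor that rose, by 0.33 and 0.44 (edgeR adjusted p = 0.00143 and 0.000538).

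The interaction compares the change with siC/EBPb in aKO cells with that in Cont cells. It uses the same libraries as the comparisons above, both siNS groups included, so it is not a result separate from them. It was positive and called for 14 of 35 genes in eWAT (40%) and for 9 in iWAT (25.7%), and negative and called for none. Over all tested genes it was called positive for 3.01% in eWAT and 1.32% in iWAT, and negative for 3.33% and 2.19%. The median interaction of the 35 genes was 0.32 in each depot, against −0.02 over all tested genes. The 9 genes of iWAT, all among the 14 of eWAT, were Dusp4, Dusp6, Egr1, Egr2, Egr3, Errfi1, Fosl1, Nr4a1 and Phlda1, and eWAT added Csrnp1, Myc, Nr4a3, Sgk1 and Spry4. The number is sensitive to single libraries. In eWAT it was 9 without Cont siNS replicate 1 and 7 without aKO siC/EBPb replicate 1. In iWAT it was 2 without aKO siNS replicate 1, 4 without aKO siNS replicate 3 or aKO siC/EBPb replicate 1, and 5 without Cont siNS replicate 1 or any 1 of the 3 Cont siC/EBPb libraries.

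Behind a positive interaction lay 2 kinds of pattern. Dusp6 and Errfi1 fell in both genotypes but by less in aKO. Dusp6 changed by −0.95 in eWAT aKO and −1.61 in eWAT Cont (interaction 0.66 ± 0.176, edgeR adjusted p = 0.0232), and by −0.77 in iWAT aKO and −1.50 in iWAT Cont (0.73 ± 0.199, 0.0378). Errfi1 changed by −0.47 in eWAT aKO and −1.09 in eWAT Cont, and by −0.39 in iWAT aKO and −1.04 in iWAT Cont, with interactions of 0.62 ± 0.105 and 0.66 ± 0.11 (edgeR adjusted p = 0.000458 and 0.000589). For both genes the aKO siNS level was already the lower of the siNS levels, and Errfi1 ended at a like level under siC/EBPb, with means of 112 CPM in aKO and 114 CPM in Cont of eWAT. Egr2 was of this kind in iWAT alone, with −0.28 in iWAT aKO and −0.80 in iWAT Cont (0.52 ± 0.148, edgeR adjusted p = 0.0477). In eWAT it changed by −0.71 in Cont and did not pass the threshold in aKO (−0.04). The other called interactions came from genes that fell, or did not pass the threshold, in Cont and rose, or did not pass it, in aKO. The log2 fold change of Egr1 with siC/EBPb was 0.36 in eWAT aKO and −0.22 in eWAT Cont (interaction 0.58 ± 0.0986, edgeR adjusted p = 0.000527) and 0.29 in iWAT aKO and −0.19 in iWAT Cont (0.48 ± 0.111, 0.0116). That of Dusp4 was 0.07 in eWAT aKO and −0.63 in eWAT Cont, an interaction of 0.70 ± 0.121, and 0.01 in iWAT aKO and −0.61 in iWAT Cont, one of 0.62 ± 0.132 (edgeR adjusted p = 0.000641 and 0.00613). Egr3 had the largest interaction shared by the depots, at 1.07 ± 0.199 and 0.92 ± 0.228 (edgeR adjusted p = 0.00117 and 0.0207), and Nr4a3 in eWAT the largest of all at 1.80 ± 0.421 (0.00972). Fos, Trib1, Per1, Junb, Btg2 and Nr4a2, called in both genotypes, had no called interaction, with values from −0.44 to 0.33 in the 2 depots.

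**Figure D3:**
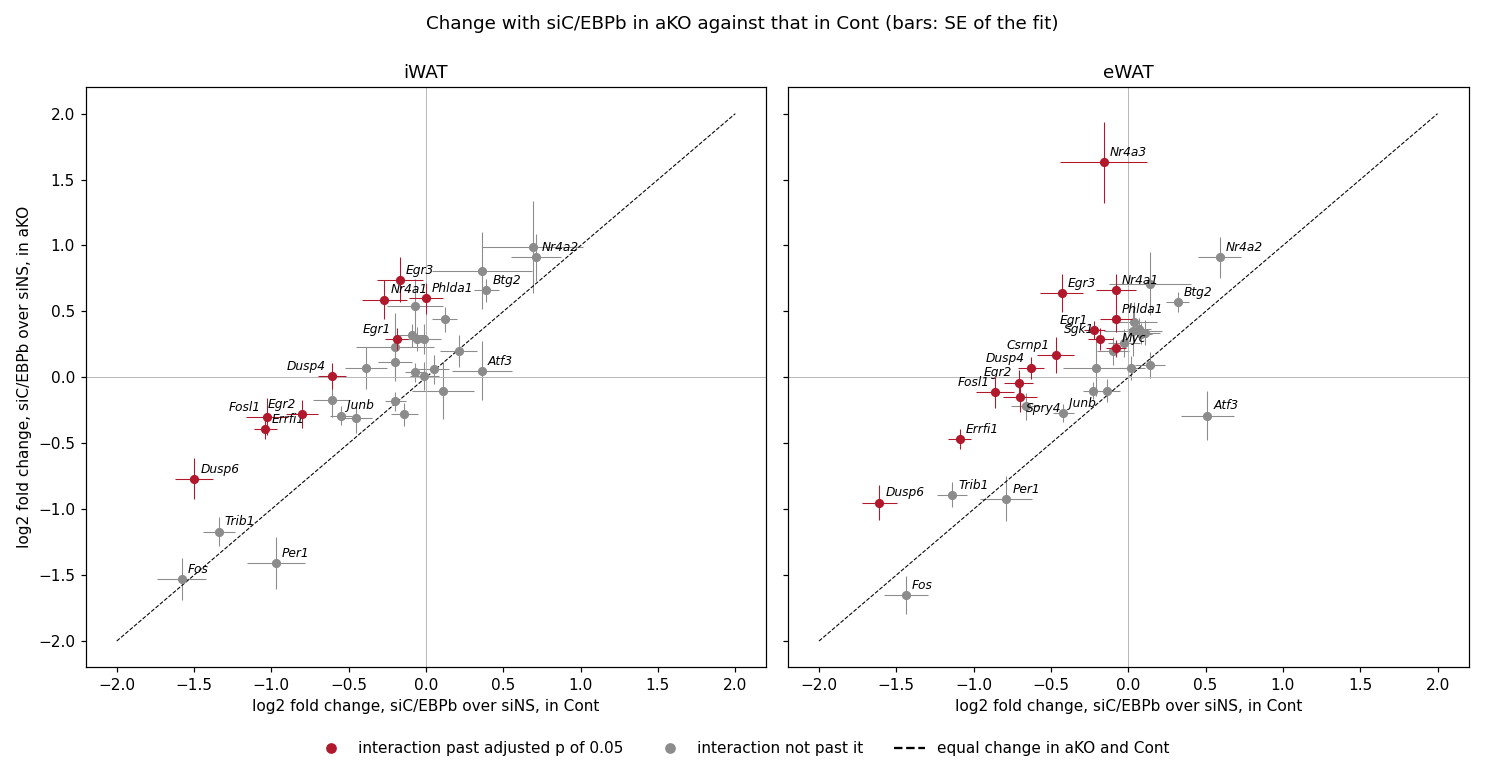
Log2 fold change with siC/EBPb in aKO (vertical) against that in Cont (horizontal) for the 35 tested genes in each depot, with standard errors, red where the interaction passed the threshold. All red points, 9 in iWAT and 14 in eWAT, lie above the line of equal change, while Fos and Trib1 lie near it.

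Compared directly under siC/EBPb, 7 of these genes were higher in aKO than in Cont cells in both depots. The leukocyte, mesothelial, endothelial and fibroblast markers that fell in the same comparison are given above. In eWAT 7 of 35 rose in aKO (20%) and 1 fell (2.86%), where 3.9% of all tested genes rose and 6.87% fell. In iWAT the same 7 rose (20%) and 3 fell (8.57%), against 3.52% and 6.51% of all genes. The 7 were Dusp4, Egr1, Egr2, Fosl1, Nr4a1, Phlda1 and Sgk1, and the medians of the 35 genes were 0.13 and 0.07, against −0.00 over all tested genes in each depot. In iWAT 5 passed the threshold without Cont siC/EBPb replicate 3 and 6 without aKO siC/EBPb replicate 1, in place of 10. Egr2 had 17.4, 18 and 16.5 CPM in eWAT aKO siC/EBPb and 11.4, 12.7 and 11.2 CPM in Cont siC/EBPb (0.55 ± 0.097, edgeR adjusted p = 0.000223). In iWAT it had 16, 14.7 and 16.4 CPM in aKO siC/EBPb and 12, 11 and 11.1 CPM in Cont siC/EBPb (0.47 ± 0.103, edgeR adjusted p = 0.00273), so that all aKO libraries lay above all Cont libraries in both depots. Sgk1 had 217, 181 and 188 CPM in eWAT aKO siC/EBPb and 132, 137 and 129 CPM in Cont siC/EBPb, and differed by 0.56 in eWAT and 0.57 in iWAT (edgeR adjusted p = 2.32e-05 and 2.23e-05). Nr4a1 had 20.4, 14.3 and 15.1 CPM in iWAT aKO siC/EBPb and 9.03, 10.8 and 10.4 CPM in Cont siC/EBPb (0.71 ± 0.135, edgeR adjusted p = 0.000633). Atf3 fell in both depots, with 5.57, 10.3 and 9.27 CPM in eWAT aKO siC/EBPb and 14.4, 14 and 14.5 CPM in Cont siC/EBPb (−0.78 ± 0.176, edgeR adjusted p = 0.00334; iWAT −0.58, 0.0499). Dusp6 and Spry2 fell in iWAT alone (−0.58 and −0.26; edgeR adjusted p = 0.00842 and 0.0364) and just missed the threshold in eWAT (−0.40 and −0.22; 0.0596 and 0.0598).

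Replicate 1 of aKO siC/EBPb stood apart from the other 2 in several of these values, in both depots. It had the lowest Cebpb RNA (20.1 CPM in eWAT and 12.7 CPM in iWAT) and the lowest sum of the 10 adipocyte markers (618 and 737 CPM, against 1137 to 1342 CPM in the other 4 aKO siC/EBPb libraries). It also had the highest sum of the 7 smooth muscle and pericyte markers, 4729 CPM in eWAT and 5101 CPM in iWAT, against 3472 to 4038 CPM in the other 4. Its sums of leukocyte markers (43.9 and 40.9 CPM in eWAT and iWAT) and of fibroblast and progenitor markers (24528 and 22536 CPM) were the lowest of its groups. Nr4a1, Phlda1, Sgk1 and Fosl1 were highest and Atf3 lowest in this replicate in both depots. These are picked from the 35 genes, of which 19 lay above the group mean in eWAT and 23 in iWAT. The median log2 deviation of the 35 from the group mean was 0.01 and 0.06. Whether these differences are linked was not tested.

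Between the depots 1 of these genes passed the threshold, and the median of the 35 was lower in iWAT. That median difference, iWAT against eWAT in Cont siNS cells, was −0.16, against −0.01 over all tested genes, and 10 of the 35 were under an unadjusted p of 0.05. In Cont siNS cells Ier3, an early survival gene, was lower in iWAT, with 15.3, 23.2 and 17.9 CPM against 32, 35.8 and 36.2 CPM in eWAT (−0.89 ± 0.165, edgeR adjusted p = 0.00898), and no other gene of the 35 passed the threshold (2.86%, against 0.514% of all tested genes that were lower and 0.69% that were higher in iWAT). Same-numbered libraries of the depots deviated together in this group, so the comparison was also made within numbers. With that replicate block Ier2 (−0.41 ± 0.0836, edgeR adjusted p = 0.0275) and Ier3 (−0.89 ± 0.129, 0.0064) were lower in iWAT, where 0.426% of all tested genes were. In place of 1 gene, 6 passed the threshold without the shallow library, which is in neither group but enters the common fit, 3 without replicate 1 of iWAT Cont siNS, and 0 without replicate 3 of either depot's Cont siNS; limma voom called 5. The change from Cont to aKO cells with siNS was not found to differ between the depots for any gene. EdgeR's quasi-likelihood test called 0 of 14785 genes, 0% of them. Of the 35 described here 1 was under an unadjusted p of 0.05. DESeq2's Wald test and limma voom called none of the 35 either. Same-numbered libraries of the depots deviated together in 9 of 12 pairs, not in all. Like results in the 2 depots are therefore not to be taken as results from independent sets of libraries.

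**Figure D4:**
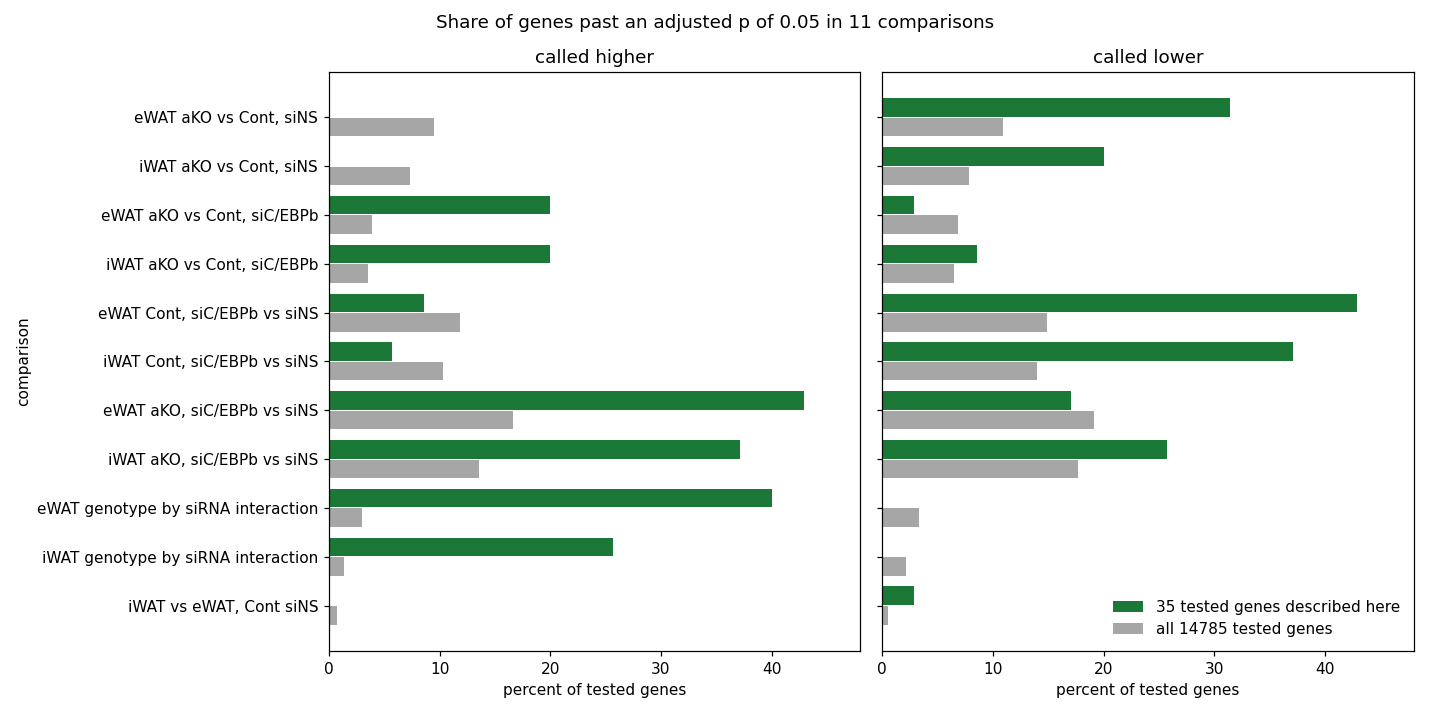
Percent of the 35 tested genes described here (green) and of all 14785 tested genes (grey) called higher (left) and lower (right) in each of 11 comparisons. On the left the green and grey bars are 40% against 3.01% in the eWAT interaction and 25.7% against 1.32% in the iWAT interaction, and on the right 42.9% against 14.9% in the eWAT Cont knockdown and 37.1% against 14% in the iWAT Cont knockdown.

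Genes named after the pathway's other layers moved in part with these. Of all tested genes, 10.9% fell and 9.5% rose in eWAT aKO siNS against Cont siNS, and 7.85% and 7.32% in iWAT. With siC/EBPb 14% to 19.1% fell and 10.3% to 16.6% rose in the 4 comparisons. Interactions were called positive for 3.01% and negative for 3.33% in eWAT, and for 1.32% and 2.19% in iWAT. No list was tested as a set, and several counts below are near these shares. Of 13 tested late ERK targets and ETS-family factors, 9 fell in eWAT aKO siNS against Cont siNS with none rising, and 8 fell in iWAT with 1 rising. Their medians were −0.51 and −0.61. Emp1 fell by 0.51 in eWAT and 0.61 in iWAT, Plaur, the urokinase receptor, by 0.62 and 0.74, and the EGF receptor ligand Ereg by 1.87 and 1.48 (edgeR adjusted p between 3.78e-05 and 0.00277). With siC/EBPb 10 of the 13 rose and 3 fell in eWAT aKO, 7 rose and 3 fell in iWAT aKO, 2 rose and 6 fell in eWAT Cont, and 2 rose and 5 fell in iWAT Cont. The interaction was positive and called for 7 and 4 of them and negative for none.

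The genes of the ERK cascade, receptors and adaptors as well as kinases, showed no such one-sided change. Of 29 genes of the ERK cascade, 4 rose and 3 fell in eWAT aKO siNS against Cont siNS, and 5 rose and 2 fell in iWAT. Map2k1, which encodes the kinase MEK1, fell by 0.46 and 0.43, and the insulin receptor substrate Irs1 rose by 0.35 and 0.51 (edgeR adjusted p = 1.52e-05, 0.000169, 0.00128 and 0.000103). With siC/EBPb 10 rose and 8 fell in eWAT aKO, 5 and 9 in iWAT aKO, 5 and 9 in eWAT Cont, and 6 and 8 in iWAT Cont. Of 21 further feedback genes 7 fell in eWAT aKO siNS and 1 in iWAT, Spred2 in both (−0.39 in each, edgeR adjusted p = 8.87e-05 and 0.000575), and none rose. Another Sprouty gene, Spry1, rose with siC/EBPb in all 4 comparisons, by 1.82 and 1.81 in aKO and by 1.57 and 1.59 in Cont (edgeR adjusted p = 1.42e-15, 1.39e-13, 4.78e-14 and 3.07e-13), opposite to Spry4 in Cont cells. Of 16 genes of the p38 and JNK pathways, 6 fell in eWAT Cont and 4 in each other comparison of siC/EBPb with siNS, among them Map3k5 in all 4, and 1 or 2 rose. Of 18 tested upstream transcription factors 3 fell in eWAT aKO siNS and 1 in iWAT, Elk3, an ETS-family partner of serum response factor, in both (−0.29 and −0.43, edgeR adjusted p = 0.00331 and 0.000326). Srf rose with siC/EBPb in aKO of both depots (0.42 and 0.41, edgeR adjusted p = 7.83e-05 and 0.000683). Of 25 other tested immediate early genes 5 rose and 5 fell in eWAT aKO siNS and 8 rose and 3 fell in iWAT, so that the one-sided fall was not seen over that list. There the interaction was called positive for 3 and negative for 6 in eWAT and for 2 and 4 in iWAT, with Ccn2 positive (1.23 and 1.38) and Gem and Id3 negative (−1.16 and −1.51, −0.65 and −0.80; edgeR adjusted p between 7.64e-05 and 0.00598).

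Of the tested genes 5 passed the threshold in none of the 12 comparisons: Fosb, Jund, Dusp1, Dusp5 and Zfp36, an RNA-binding protein that destabilises inflammatory messages. Jund had means of 126 to 170 CPM in the 8 groups, whereas Fosb (2.51 to 3.82 CPM) and Dusp5 (2.61 to 4.67 CPM) were among the least abundant.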

How the data were processed

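Poly(A) RNA libraries were prepared with a directional kit, per the labels' protocols. The submitters' processing notes name CASAVA, cutadapt 2.7, TopHat2 2.1.1, HTSeq, edgeR and the build GRCm38; the strand setting of counting is stated in neither labels nor notes. The authors deposited raw counts per gene. Symbols came from GENCODE M21, which named 53360 of 53465 gene identifiers, and the 5 summary lines that the counting program adds per library were left out.

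Groups followed the labels, with 3 libraries in each of 8. Counts were fitted with edgeR 4.0.16 (R 4.3.3; filterByExpr with a minimum count of 10, TMM scaling, 1 mean per group over all 24 libraries, robust quasi-likelihood test), with Benjamini-Hochberg adjustment over 14785 genes. Multiple mapping and copies of a gene were not corrected for. The 12 contrasts were aKO against Cont, siC/EBPb against siNS, their interaction in each depot, and 2 depot contrasts. The procedure was tested on simulated data. Alternatives used DESeq2 1.42.0, limma 3.58.1 (voom), other filters and scalings, a replicate block, and libraries left out.

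All 36 genes may be named. Of the other lists, up to 4 genes per contrast with the smallest p past the threshold, the defining markers, Senp2 and Cebpb may be named. Members and lists were chosen with earlier results of these data known.

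Within depots same-numbered libraries did not deviate together (3 of 24 pairs had a correlation over 0.1 across 8159 genes). Between depots 9 of 12 pairs did, including all 3 of Cont siNS (0.27 to 0.425). The depot contrast is therefore also given with numbers as a block. Over all 12 pairs the correlation ran from −0.528 to 0.748, and it was −0.528 and −0.174 for aKO siNS replicates 1 and 2. Replicates differed beyond counting noise (chi-square per degree of freedom 2.05 to 63.2), and each library was counted separately. The values above 22, which were 56.5 and 63.2, came from iWAT aKO siNS, the group of the shallow library. Such differences do not show whether replicates were separate mice or wells. Gene counts per library set the precision; no error of library making before sequencing is covered.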

Additional observations from a re-analysis of the deposited data

Results flagged for a closer look

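The results listed here are the tests in which the change with siC/EBPb differed between aKO and Cont cells, each as the log2 difference of the effect, aKO minus Cont, from edgeR. In eWAT the difference was 1.80 for Nr4a3, 1.07 for Egr3, 0.75 for Fosl1, 0.74 for Nr4a1, 0.70 for Dusp4, 0.67 for Egr2 and 0.66 for Dusp6. It was 0.64 for Csrnp1, 0.62 for Errfi1, 0.58 for Egr1, 0.55 for Spry4, 0.53 for Phlda1, 0.48 for Sgk1 and 0.29 for Myc. In iWAT it was 0.92 for Egr3, 0.86 for Nr4a1, 0.73 for Fosl1, 0.73 for Dusp6, 0.66 for Errfi1, 0.62 for Dusp4, 0.60 for Phlda1, 0.52 for Egr2 and 0.48 for Egr1. All 23 values are positive. Cebpb RNA under siC/EBPb was lower in aKO than in Cont cells, with means of 27.4 CPM in eWAT aKO and 50.4 CPM in eWAT Cont, and of 18.5 CPM in iWAT aKO and 36 CPM in iWAT Cont, and the part of this in these differences was not tested.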

How the results depend on the processing

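Of 136 calls among the genes described here, 77 held under every alternative tried for their contrast, 59 were lost under at least 1, and 0 changed sign. Those that held with siNS were Csrnp1, Dusp4, Dusp6, Egr3, Errfi1, Maff and Spry2 in eWAT and Dusp6, Errfi1 and Spry2 in iWAT, and of the interactions Dusp4, Egr1, Egr2, Egr3, Errfi1 and Nr4a3 in eWAT and Errfi1 in iWAT. Leaving out each library in turn gave 9 to 11 and 6 to 9 called genes for aKO against Cont with siNS in eWAT and iWAT, 7 to 9 and 5 to 9 with siC/EBPb, 15 to 17 and 13 to 15 for siC/EBPb in Cont, 17 to 21 and 14 to 22 in aKO, 7 to 13 and 2 to 10 for the interactions, 0 to 3 for the depots and 0 to 0 for depot by genotype; where this leaves 1 library in a group, it is assumed to vary like the other groups. Fitted on the groups of the contrast alone, 3 in place of 7 genes passed for aKO against Cont with siNS in iWAT, 8 in place of 22 for siC/EBPb in iWAT aKO, 2 in place of 9 for the iWAT interaction and 2 in place of 1 for the depots; the first 3 include the shallow library with fewer others to set the spread. Limma voom called 13 in place of 8 for aKO against Cont with siC/EBPb in eWAT and 5 in place of 1 for the depots. For the depots 2 genes passed with no filter, 2 with a replicate block within genotype and siRNA, an alternative added after seeing the data, and 6 without the shallow library. A replicate block within depots, whose numbers share only a name, left 18 of 22 calls for siC/EBPb in iWAT aKO and moved no count by over 1.5 times. Depth limits mainly iWAT aKO siNS replicate 2, where Fosb, Dusp5 and Nr4a3 had 0 CPM. In that library 93.3% of the listed reads were not aligned, so its departures from its group need not be low-count noise alone.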
